A study of Brassica rapa subsp. chinensis with 2 samples.

Results

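The genes described here are the *Brassica rapa* matches to *FLOWERING LOCUS C* (*FLC*), to the *MADS AFFECTING FLOWERING* genes (*MAF*), to *Short Vegetative Phase* (*SVP*) and to *SUPPRESSOR OF OVEREXPRESSION OF CO 1* (*SOC1*). They were taken by the protein name of their best Swissprot match in the deposited gene table, and 15 of its 33087 genes carried such a name. Best matches being *Arabidopsis thaliana* proteins, they comprised 4 *FLC* genes, 6 *MAF* genes, 2 *SVP* genes and 3 *SOC1* genes. The *MAF* genes were matched to AGL27, AGL31 or AGL70, which are other names of MAF1 (also called FLM), MAF2 and MAF3.

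All 4 families encode MADS-box transcription factors that time the change from leaf to flower production. In *Arabidopsis*, FLC and SVP bind together at *SOC1* and at *FLOWERING LOCUS T* and hold their transcription down, and the MAF proteins act beside them as further repressors. Long cold silences *FLC* through Polycomb proteins, which is vernalization, and SOC1 then collects the signals of cold, day length, age and gibberellin at the shoot apex and promotes flowering. *Brassica rapa* keeps several copies of most of these genes from a whole-genome triplication.

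Stems at the bolting stage were compared between the doubled-haploid lines ‘CX001’, a flowering Chinese cabbage without epidermal wax, and ‘FT’, a Chinese cabbage with wax. The name of the line ‘FT’ is not that of the gene *FLOWERING LOCUS T*, which is always spelled out here. Neither line received a treatment by the labels, and by the methods germinated seeds of the study's plants were kept in the cold for vernalization before planting. ‘CX001’ carries *wlm1*, a recessive loss of the *CER1* homologue BraA09g066480.3C, an alkane-synthesis gene of wax. As each line is a single genotype from a different crop type, *wlm1* and all other differences between their genomes cannot be told apart. Each line had 3 RNA libraries, and the sources used here do not say that these came from separate plants, so that a p-value covers the variation from library to library alone.

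The deposited table gave the mean of the normalized read counts over the 3 libraries of a line. The reads of each library were worked out from these means, as 1 set of whole numbers for 99.88% of genes in ‘FT’ and 99.87% in ‘CX001’. The libraries then held 14734030 to 16533340 reads in those genes. They are numbered 1 to 3 in each line by how much 1 of their reads adds to the line mean, which is not the authors' numbering. Over all genes, the SD of the log2 difference between libraries was 0.561 to 0.619 within ‘FT’, 0.693 to 0.829 within ‘CX001’ and 1.77 to 1.89 between the lines. The *CER1* homologue had 14256, 16507 and 20003 normalized reads in ‘FT’ and 5.66, 11.6 and 25.7 in ‘CX001’. Matches to the xylem cellulose synthases *CESA4*, *CESA7* and *CESA8*, which mark secondary walls of the stem, summed to 1635 to 2541 in ‘FT’ and to 2347, 7222 and 19740 in libraries 1, 2 and 3 of ‘CX001’. Of their 6 genes, 4 could be tested and 2 were called by the rule given below, both higher in ‘CX001’ (limma adjusted p = 0.0457 and 0.0486). That was 50% called, against 30.6% over all genes tested. The called *CESA8* match BraA03g048470.3C overlapped between the lines. The other *CESA8* match was listed at 0 in ‘CX001’ and had 1, 3 and 0 reads in ‘FT’. Of 11 matches to floral organ genes, 2 could be tested and 0 were called, with sums of 20.03 to 72.2 in ‘FT’ and 81.1 to 129.6 in ‘CX001’, and 4 of them, both *APETALA 3* matches and 2 *PISTILLATA* matches, were at 0 in ‘FT’. Of 31 matches to light-harvesting proteins and the rubisco small chain, 19 could be tested, 4 were higher and 2 lower in ‘CX001’. That was 31.6% called, near the 30.6% over all genes tested. The 20 with reads worked out summed to 118810 to 138120 in ‘FT’ and 93471 to 151690 in ‘CX001’. These sums leave out the most abundant matches, those with a mean above 20000 in either line. Most of those had lower means in ‘CX001’, as BraA04g011050.3C at 162720 in ‘FT’ and 52348 in ‘CX001’. BraA04g010970.3C and BraA07g019510.3C had higher ones. Of 5 matches to the phloem genes *APL* and *SUC2*, all tested, 0 were higher and 2 lower, or 40%. Their sums were 1436 to 1814 in ‘FT’ and 833 to 1296 in ‘CX001’. The part of tissue make-up in the results below was not tested, and in bulk stem RNA fewer cells of a type and less RNA per cell cannot be told apart.

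A gene was tested where its mean was at least 10 in either line, and it was called where the adjusted p of limma was below 0.05 and the lines differed more than 2-fold, a log2 fold change beyond 1 or -1. Over the 25938 genes tested, 30.6% were called, 14.5% as higher and 16.1% as lower in ‘CX001’. For 59.3% of them the 3 libraries of one line all lay above those of the other. Of the 15 genes, 14 were tested. Of these 6 were higher, 4 were lower and 4 were not called, and in 10 the libraries of the lines did not overlap. Their median log2 fold change was 1.5 in size, against 0.63 over all genes tested. The members were chosen with earlier results of these data known, so these counts and sizes give no independent evidence. Of the 14, 3 (BraA03g004170.3C, BraA03g015950.3C and BraA03g015960.3C) passed the filter only through the line where they were higher. The calls differed by family, with 1 of 4 *FLC* genes higher and 3 lower, 4 of 5 tested *MAF* genes higher, 1 of 2 *SVP* genes higher and 1 of 3 *SOC1* genes lower in ‘CX001’.

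**Figure D1:**
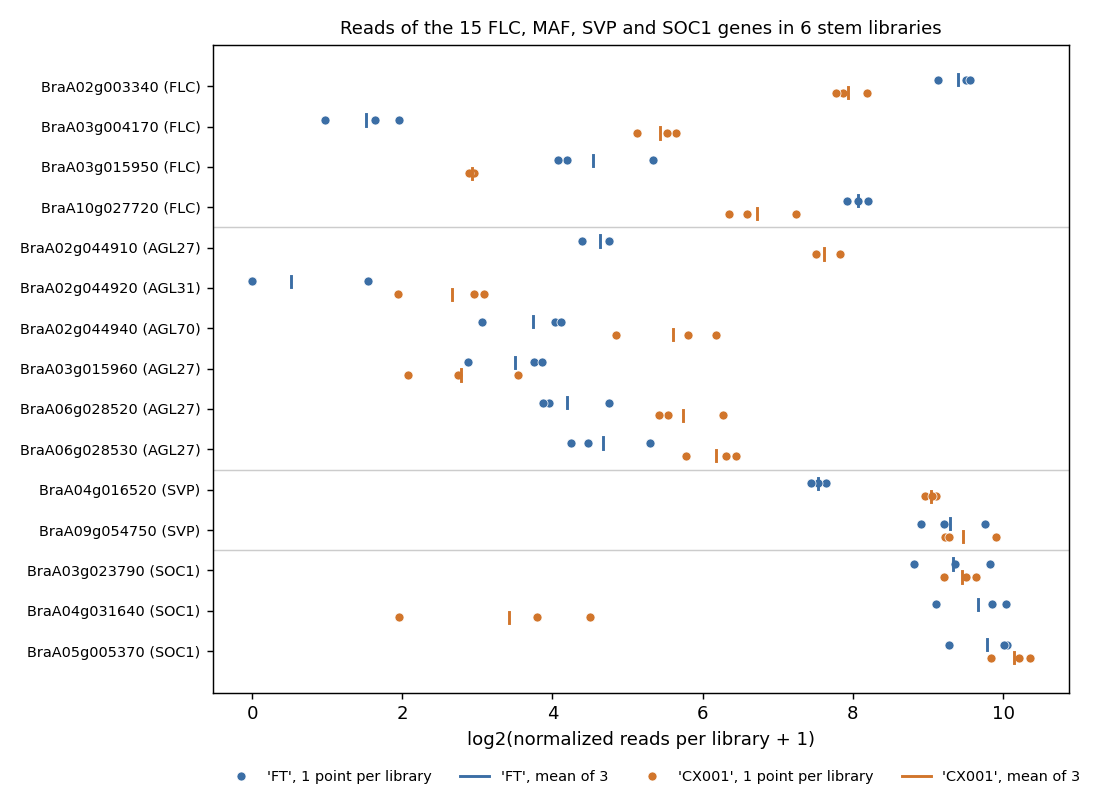
Normalized reads of the 15 genes in the 6 stem libraries, as log2(normalized reads + 1) on the horizontal axis, with 1 point per library and a bar at the mean of each line's 3 points, blue for ‘FT’ and orange for ‘CX001’. The largest gap between the lines is at the *SOC1* match BraA04g031640.3C, at 551.3 to 1054 normalized reads in ‘FT’ and 2.90 to 21.7 in ‘CX001’.

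The genes lay on 7 chromosomes of the *B. rapa* genome V3.0. The *FLC* match with the most reads, BraA02g003340.3C, was at chromosome A02, positions 1616321 to 1619579, on the minus strand. BraA10g027720.3C, which RefSeq names *FLC1*, was at A10, 18122666 to 18127006, on the plus strand, and BraA03g004170.3C at A03, 1785605 to 1788549, on the minus strand. Their coding lengths were 591, 594 and 594 bases. The remaining *FLC* match, BraA03g015950.3C (A03, 7336775 to 7338542, plus strand), had a coding length of 465 bases. It lay 2469 bases before BraA03g015960.3C (A03, 7341012 to 7342857, plus strand), an AGL27 match of 294 bases, with no gene between them. Both are short models side by side, and how the authors' counting divided reads between them is uncertain.

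The *MAF* genes were clustered. On A02, the AGL27 match BraA02g044910.3C (30859450 to 30863265), the AGL31 match BraA02g044920.3C (30871188 to 30875250) and the AGL70 match BraA02g044940.3C (30880663 to 30885462) followed each other on the plus strand at gaps of 7922 and 5412 bases. On A06, the AGL27 matches BraA06g028520.3C (19743867 to 19744662) and BraA06g028530.3C (19751255 to 19752796) were neighbours at a gap of 6592 bases on the plus strand, with coding lengths of 396 and 417 bases against 537 to 600 on A02. The *SVP* matches were BraA04g016520.3C (A04, 12552714 to 12554295, plus strand, coding length 528) and BraA09g054750.3C (A09, 39616299 to 39619477, minus strand, 726). The *SOC1* matches BraA03g023790.3C (A03, 11418754 to 11421140), BraA04g031640.3C (A04, 21430368 to 21432782) and BraA05g005370.3C (A05, 2724055 to 2726497) were all on the minus strand with a coding length of 642 bases. How reads that fit several such copies were counted is not given in the sources used here. Reads of both lines were aligned to the same reference genome. For a copy with few reads in a line, lower transcription cannot be told apart from absence, sequence divergence or poorer alignment there.

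The 2 *FLC* genes with the most reads were lower in ‘CX001’ stems, while a further copy with few reads in ‘FT’ was higher. BraA02g003340.3C had 723, 755 and 559.7 normalized reads in the ‘FT’ libraries and 233, 217 and 289 in those of ‘CX001’. Every ‘FT’ library thus lay above every ‘CX001’ library. The mean went from 679 ± 105 to 246 ± 37.9 (SD, n = 3 each), 2.75-fold lower (log2 fold change -1.46, 95% interval -1.85 to -1.06, adjusted p = 0.000298 from limma). BraA10g027720.3C (*FLC1*) had 295, 267 and 242 in ‘FT’ and 80.2, 95.5 and 150.0 in ‘CX001’. Again the lines did not overlap, and ‘CX001’ library 3 came nearest to ‘FT’. It was 2.53-fold lower (log2 fold change -1.34, interval -1.91 to -0.77, adjusted p = 0.00283).

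BraA03g004170.3C went the other way. It had 0.963, 2.89 and 2.11 normalized reads in ‘FT’, which are 1, 3 and 2 reads, and 49.1, 33.8 and 45.0 in ‘CX001’. The ratio of its line means was 21.5 (95% interval of counting error 9.59 to 59.5), and the test gave an adjusted p = 0.000163, at a log2 fold change of 3.91 (2.96 to 4.85) that depends on the 1 added before the log. BraA03g015950.3C had 39.5, 17.3 and 15.8 in ‘FT’ against 6.61, 6.76 and 6.43 in ‘CX001’. ‘FT’ library 1 was far above the other two, and all 3 lay above ‘CX001’. Its fold was 3.05 lower (log2 fold change -1.61, interval -2.61 to -0.61, adjusted p = 0.0157).

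Summed over the 4 copies, *FLC* reads were 973 ± 133 in ‘FT’ and 404 ± 75.2 in ‘CX001’ (SD, n = 3), 2.41 times as many in ‘FT’. BraA02g003340.3C supplied 69.7% ± 2.41 of it in ‘FT’ and 61.2% ± 2.12 in ‘CX001’, and BraA10g027720.3C 27.7% ± 1.99 and 26.5% ± 4.44. BraA03g004170.3C rose from 0.208% ± 0.102 of the *FLC* reads to 10.7% ± 2.28.

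The *MAF* genes, repressors that in *Arabidopsis* respond to temperature and cold, were higher in ‘CX001’ in all 4 called cases. BraA02g044910.3C, the AGL27 match of the A02 cluster, showed the largest difference among them. Its libraries had 26.0, 26.0 and 20.03 normalized reads in ‘FT’ and 181, 180.5 and 226 in ‘CX001’. The lowest ‘CX001’ library was thus far above the highest of ‘FT’. It was 7.88-fold higher (log2 fold change 2.98, interval 2.43 to 3.53, adjusted p = 4.2e-05).

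The AGL70 match beside it, BraA02g044940.3C, had 15.4, 16.4 and 7.38 in ‘FT’ and 54.7, 71.4 and 27.9 in ‘CX001’. Library 3 was the lowest in each line, and the lines did not overlap. The gene was 3.65-fold higher (log2 fold change 1.87, interval 0.80 to 2.93, adjusted p = 0.0109). The AGL31 match between them, BraA02g044920.3C, rested on 2 reads in ‘FT’, both in library 1, and on 3, 7 and 7 reads in ‘CX001’. It was under the minimum mean and was not tested, and the ratio of its means was 8.88 with a counting interval of 2.11 to 79.2.

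The AGL27 matches of the A06 cluster differed between the lines by nearly the same factor. BraA06g028520.3C had 14.4, 26.0 and 13.7 in ‘FT’ and 76.5, 45.4 and 41.8 in ‘CX001’ (2.93-fold, log2 fold change 1.55, interval 0.67 to 2.43, adjusted p = 0.011). BraA06g028530.3C had 21.2, 38.5 and 17.9 in ‘FT’ and 78.3, 54.0 and 85.7 in ‘CX001’ (2.84-fold, log2 fold change 1.5, interval 0.67 to 2.34, adjusted p = 0.00985). In both genes ‘FT’ library 2 was the highest of its line and stayed below all ‘CX001’ libraries. The short A03 model BraA03g015960.3C was not called, with 12.5, 13.5 and 6.32 in ‘FT’ and 5.66, 10.6 and 3.21 in ‘CX001’. Here the lines overlapped, and the log2 fold change was -0.71 (interval -1.89 to 0.47, adjusted p = 0.278), which leaves a difference in either direction possible.

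Summed over the 6 genes, *MAF* reads went from 92.4 ± 27.5 in ‘FT’ to 387 ± 16.0 in ‘CX001’ (SD, n = 3), a ratio of 4.19. BraA02g044910.3C supplied 26.9% ± 4.71 of them in ‘FT’ and 50.7% ± 6.31 in ‘CX001’. *FLC* reads exceeded *MAF* reads in every ‘FT’ library, at 820.1 to 1058 against 65.4 to 120.4. In ‘CX001’ the sums overlapped, at 353 to 491 for *FLC* and 369 to 399 for *MAF*.

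**Figure D2:**
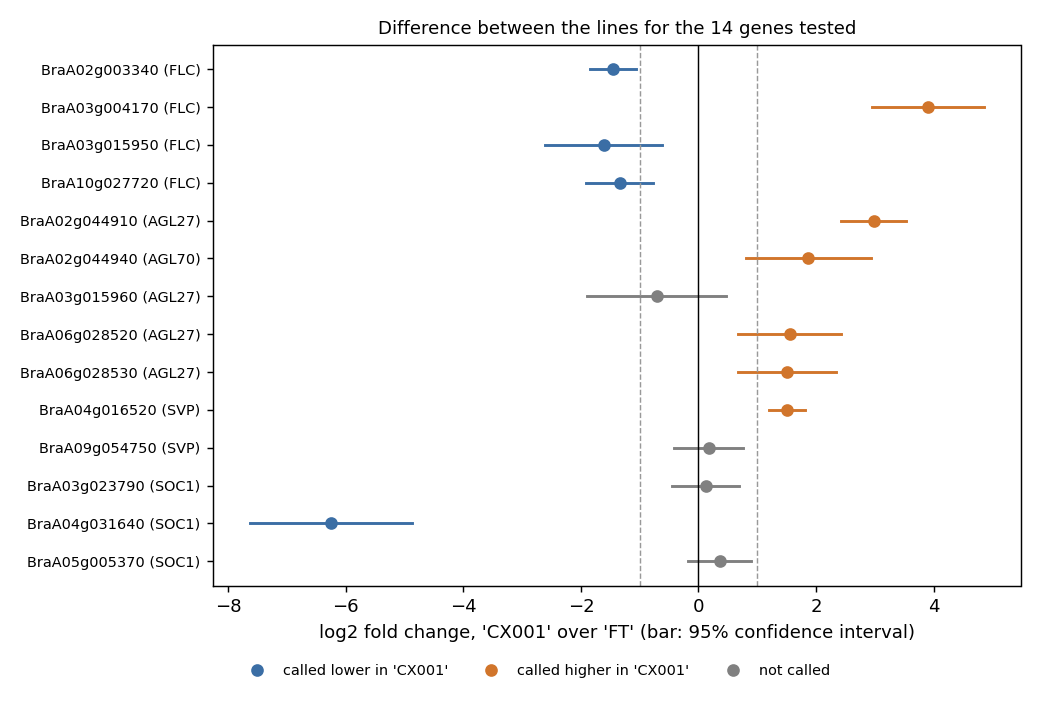
Log2 fold change of ‘CX001’ over ‘FT’ for the 14 genes tested, with points for the estimate and horizontal bars for its 95% confidence interval, orange where called higher, blue where called lower and grey where not called. Dashed lines mark the fold minimum of 2. The 3 lower *FLC* genes and the *SOC1* gene BraA04g031640.3C lie left of the minimum, and 4 *MAF* genes, BraA03g004170.3C and the *SVP* gene BraA04g016520.3C lie right of it.

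*SVP* encodes the partner of FLC at their shared target genes, and 1 of its 2 matches was higher in ‘CX001’. BraA04g016520.3C had 198, 185 and 173 normalized reads in ‘FT’ and 551, 495 and 531 in ‘CX001’. Its libraries spread by 6.86% of the mean in ‘FT’ and 5.42% in ‘CX001’, the counting error being 7.31% and 4.34%. It was 2.83-fold higher (log2 fold change 1.5, interval 1.19 to 1.81, adjusted p = 6.9e-05). The other match, BraA09g054750.3C, had 863, 592 and 481 in ‘FT’ and 959, 597 and 620.2 in ‘CX001’. Its lines overlapped, and library 1 was the highest in each. The log2 fold change was 0.18 (interval -0.41 to 0.76, adjusted p = 0.590), and its sign turned when a single library was left out.

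The sum of both *SVP* genes was 831 ± 209 in ‘FT’ and 1251 ± 226 in ‘CX001’ (SD, n = 3). BraA04g016520.3C made up 23.0% ± 3.95 of it in ‘FT’ and 42.7% ± 5.34 in ‘CX001’. Its reads were 0.230 to 0.360 times those of BraA09g054750.3C in the ‘FT’ libraries and 0.575 to 0.857 times in those of ‘CX001’. The difference in this log2 ratio was 1.33, with no overlap of the lines. A two-sided exact permutation test gave p = 0.10, the smallest that 3 against 3 libraries allow (adjusted p = 0.15 over the 3 copy ratios compared).

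*SOC1* is the flowering integrator that FLC and SVP repress, and the difference was in 1 of its 3 copies. BraA04g031640.3C had 924, 1054 and 551.3 normalized reads in ‘FT’, or 960, 1095 and 523 reads. In ‘CX001’ it had 21.7, 2.90 and 12.9, or 23, 3 and 12 reads. The lowest ‘FT’ library was thus above the highest ‘CX001’ library by more than an order of magnitude. It was 76.1-fold lower (log2 fold change -6.25, interval -7.63 to -4.87, adjusted p = 0.000104). The size depends on the 1 added before the log, being -5.72 with 5 added, and the log2 ratio of the line means was -6.08. Without ‘CX001’ library 2, which had 3 reads, the log2 fold change was -5.52 and the call was kept.

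The other *SOC1* copies did not pass. BraA05g005370.3C had 1062, 1026.5 and 623 in ‘FT’ and 1187, 917 and 1314 in ‘CX001’ (log2 fold change 0.36, interval -0.17 to 0.89, adjusted p = 0.225). BraA03g023790.3C had 656, 906 and 450.1 in ‘FT’ and 592, 728 and 798 in ‘CX001’ (log2 fold change 0.12, interval -0.45 to 0.69, adjusted p = 0.711). In each the lines overlapped, and the intervals leave out a 2-fold difference in either direction. All 3 copies were lowest in library 3 among the ‘FT’ libraries, and the sign of the difference in BraA03g023790.3C turned without that library.

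Within ‘FT’ the 3 copies kept close proportions in spite of the low library 3. BraA04g031640.3C supplied 35.0%, 35.3% and 33.9% of *SOC1* reads there, and 1.21%, 0.176% and 0.605% in ‘CX001’. Its reads were 0.870 to 1.03 times those of BraA05g005370.3C in ‘FT’ and 0.00316 to 0.0183 times in ‘CX001’. The log2 ratio was lower by more than the spread of either line (‘CX001’ minus ‘FT’ -6.81, SD 0.132 in ‘FT’ and 1.28 in ‘CX001’, n = 3, two-sided exact permutation p = 0.10, the smallest possible, adjusted p = 0.15). The ratio of BraA03g023790.3C to BraA05g005370.3C overlapped, at 0.618 to 0.883 and 0.498 to 0.794 (exact permutation p = 0.40, adjusted p = 0.40). The *SOC1* sum was 2418 ± 708 in ‘FT’ and 1858 ± 244 in ‘CX001’ (SD, n = 3), and ‘FT’ library 3, at 1624, was below the lowest ‘CX001’ library at 1647.

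**Figure D3:**
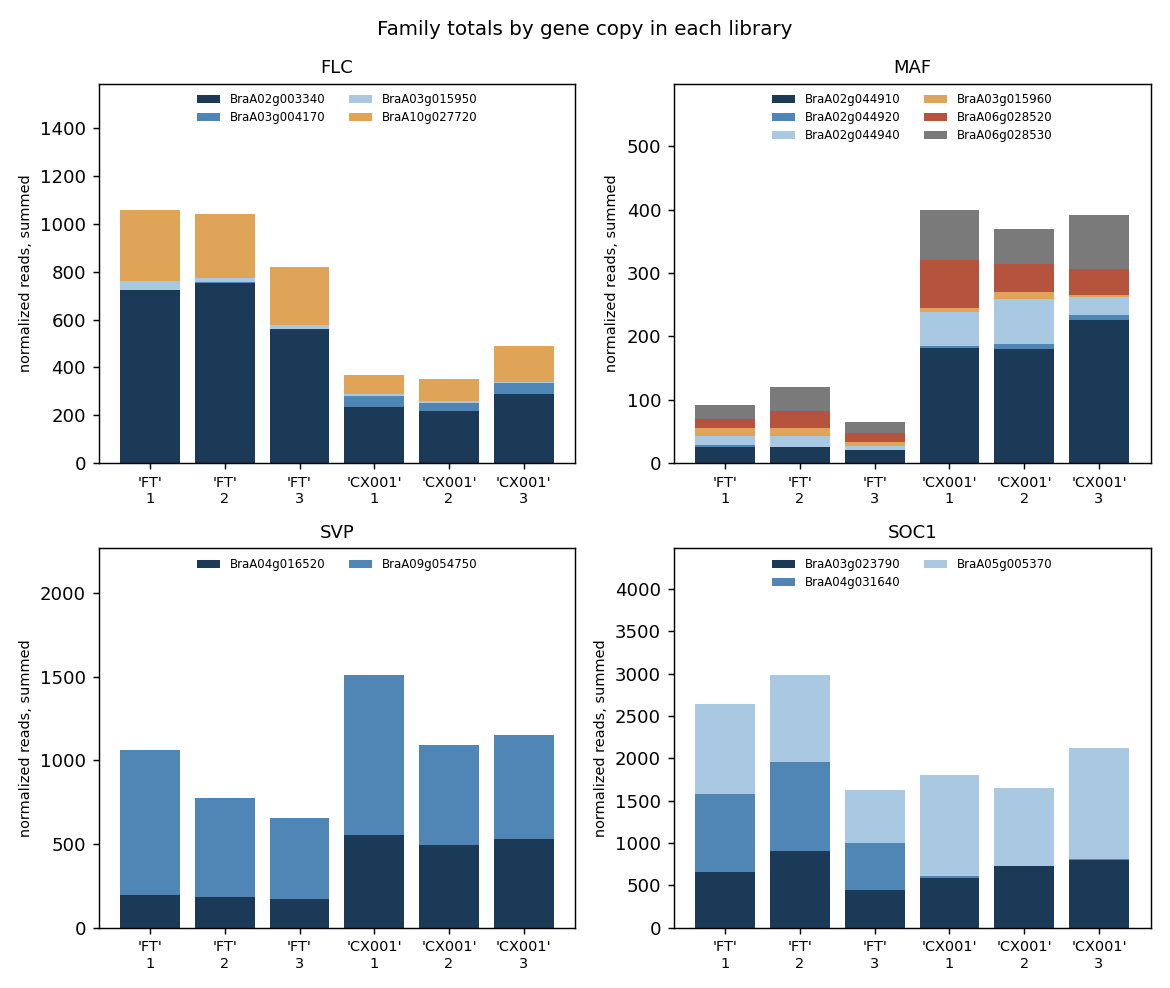
Normalized reads summed over the copies of *FLC*, *MAF*, *SVP* and *SOC1* in each of the 6 libraries, with every copy as a coloured part of the bar and a separate vertical axis per family starting at 0. The *FLC* bars fall from 820.1 to 1058 in ‘FT’ to 353 to 491 in ‘CX001’ and the *MAF* bars are higher in ‘CX001’, while the *SOC1* bars lose the BraA04g031640.3C part.

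Per kb of coding length, the order of the levels differed between the lines. In ‘FT’, the *SOC1* copies BraA05g005370.3C and BraA04g031640.3C stood first at 1408 ± 380 and 1313 ± 407 normalized reads per kb, followed by the *FLC* copy BraA02g003340.3C at 1149 ± 177, the *SOC1* copy BraA03g023790.3C at 1045 ± 356 and the *SVP* copy BraA09g054750.3C at 889 ± 271 (SD, n = 3). Neighbours among these 5 overlapped in their libraries. All of them lay above *FLC1* at 451 ± 43.9 per kb, which in turn lay above BraA04g016520.3C at 351 ± 24.1 per kb in every library. The tested *MAF* genes and BraA03g015950.3C followed between 21.7 and 62.0 per kb, with BraA03g004170.3C at 3.34 and the AGL31 match at 1.07 per kb as the last.

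In ‘CX001’, BraA05g005370.3C was first at 1775 ± 316 per kb, above all others in every library. BraA03g023790.3C at 1099 ± 163 and the *SVP* copies BraA09g054750.3C at 999 ± 279 and BraA04g016520.3C at 996 ± 53.9 per kb followed and overlapped. BraA02g003340.3C came next at 417 ± 64.1 per kb, overlapping the *MAF* gene BraA02g044910.3C at 365 ± 48.6. That *MAF* gene lay above *FLC1*, at 183 ± 61.7 per kb, in every library. *FLC1* overlapped the next gene in the order, BraA06g028530.3C, and the other called *MAF* genes, at 85.6 to 174 per kb, overlapped their neighbours. The *SOC1* copy BraA04g031640.3C stood at 19.4 ± 14.7 per kb, between the short A03 models at 22.1 and 14.2 per kb.

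**Figure D4:**
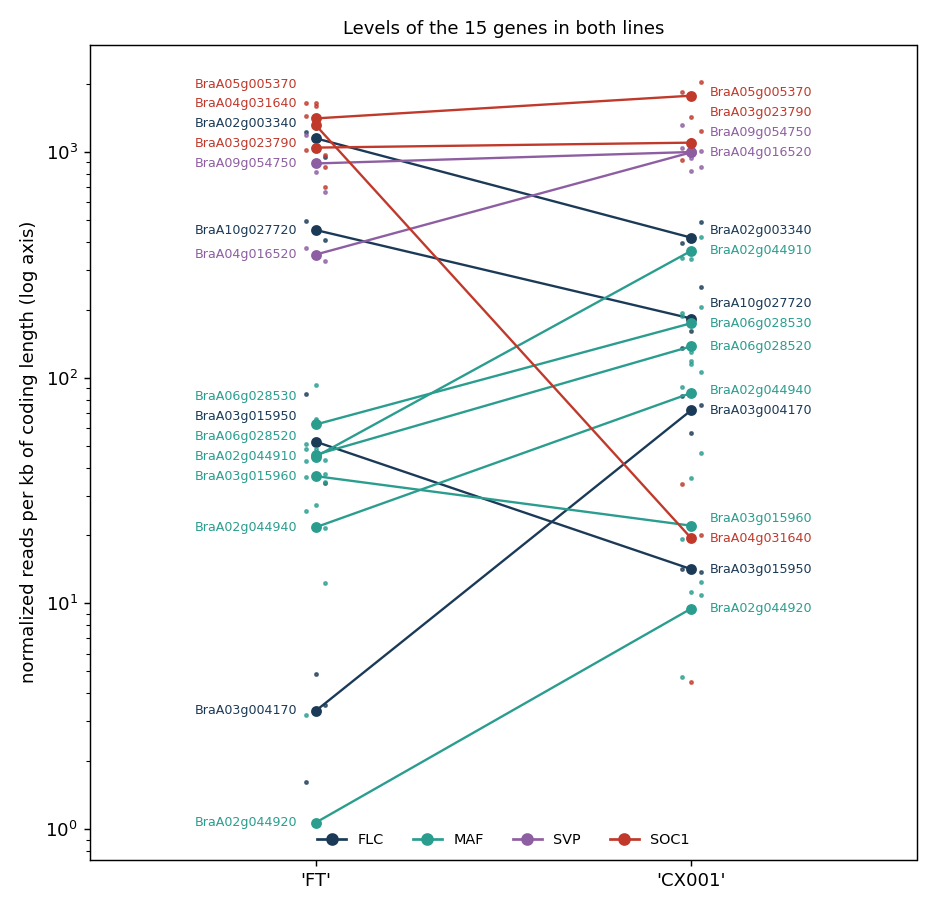
Mean normalized reads per kb of coding length (large points, log axis) of the 15 genes in ‘FT’ and ‘CX001’, joined by a line per gene and coloured by family, with small points for the libraries and libraries at 0 not drawn. BraA04g031640.3C crosses from 1313 to 19.4 per kb, and BraA02g044910.3C from 44.7 to 365.

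Genes that act before *FLC*, beside it and after it were followed by name in a list of 45 names, of which 43 were matched by 93 genes. Of the 72 genes tested, 9 were higher and 9 lower in ‘CX001’, or 25.0%, below the 30.6% of all genes tested. Their median log2 fold change was 0.41 in size, against 0.63 over all genes tested. Of the 72, 5 passed the filter only through the line where they were higher, among them the matches to *TWIN SISTER of FT*, *FLOWERING LOCUS T* and *TEM2*, which are called below. Chosen with earlier results of these data known in part, the list gives no independent evidence of a direction.

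Of the regulators upstream of *FLC*, 38 were tested, 3 were higher and 3 lower, or 15.8%, below the 30.6% of all genes tested. The largest difference was in a *FRIGIDA*-like match, BraA02g039590.3C, of the family of *FRIGIDA*, which in *Arabidopsis* activates *FLC*. It had 16.4, 12.5 and 17.9 normalized reads in ‘FT’ and 613, 619 and 555 in ‘CX001’ (adjusted p = 2.9e-06, log2 fold change 5.18). None of the other *FRIGIDA*-like matches was called. Among them BraA01g031630.3C, with the highest means, had 7172 in ‘FT’ and 4383 in ‘CX001’ (log2 fold change -0.71). The rest of those tested had log2 fold changes between 0.05 and 2.16. Of the 2 *FRIGIDA* matches themselves, BraA10g009310.3C was lower, at 285, 267 and 278 in ‘FT’ against 112, 118 and 135 in ‘CX001’ (adjusted p = 0.000569, log2 fold change -1.18). The other, BraA03g015670.3C, had means of 178 and 182 (log2 fold change 0.03, adjusted p = 0.880). A match to *FPA*, an RNA-binding protein of the autonomous pathway that lowers *FLC* in *Arabidopsis*, was higher in BraA09g049430.3C, at 239, 219.6 and 200.3 against 941, 703.5 and 649 (log2 fold change 1.78, adjusted p = 9.9e-05). None of the 3 further *FPA* matches was called. The remaining calls, named after their values were seen, were a match to *LHP1*, higher, and matches to *VIN3* and to a *VIN3*-like gene, lower. VIN3 is the cold-induced protein that starts the silencing of *FLC*, and its called match BraA03g012460.3C overlapped between the lines. None of the other matches to *LHP1*, *VIN3* or *VIN3*-like genes was called. Those tested had log2 fold changes between -0.45 and 0.32.

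Of the other repressors, 6 were tested, 2 were higher and 1 was lower, or 50%, against 30.6% of all genes tested. *TEM1* and *TEM2* encode repressors of *FLOWERING LOCUS T*. The *TEM1* match BraA09g038140.3C had 15.4, 5.78 and 17.9 in ‘FT’ and 37.8, 110.0 and 49.3 in ‘CX001’ (adjusted p = 0.00958, log2 fold change 2.23). The *TEM2* match BraA02g018750.3C rested on 3 reads in ‘FT’ and 32 in ‘CX001’, a ratio of means of 11.1 with a counting interval of 3.47 to 56.6 (limma adjusted p = 0.0112). The match to *TOE3*, an AP2-like repressor, was lower in BraA07g016770.3C, at 146, 227 and 74.8 in ‘FT’ and 51.0, 21.2 and 16.1 in ‘CX001’ (adjusted p = 0.00677, log2 fold change -2.34). In all 3 called genes the lines did not overlap. A further *TEM1* match, BraA08g025570.3C, had means of 121 and 136 and was not called (log2 fold change 0.47).

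Of the integrators and partners downstream, 28 were tested, 4 were higher and 5 were lower, or 32.1%, near the 30.6% of all genes tested. The match to *TWIN SISTER of FT*, a close relative of *FLOWERING LOCUS T* that encodes a mobile flowering signal, had no read in any ‘FT’ library. In ‘CX001’ this gene, BraA07g031650.3C, had 74.6, 79.1 and 168 normalized reads, at least 102-fold higher against a floor of 3 reads over the ‘FT’ libraries (limma adjusted p = 1.6e-05). The *AGL72* match BraA10g010460.3C and the *AGL42* match BraA09g007170.3C, of the *SOC1*-like MADS-box genes, were lower. The first had 164, 236 and 117 in ‘FT’ and 13.2, 22.2 and 9.64 in ‘CX001’ (adjusted p = 0.000228, log2 fold change -3.45), and the second 599.6, 719 and 269.9 against 47.2, 81.1 and 56.8 (log2 fold change -3.00, adjusted p = 0.000396). ‘FT’ library 3, which was the lowest for the *SOC1* copies, was the lowest for both. The other tested matches to *AGL72* (BraA03g015280.3C) and *AGL42* (BraA02g043490.3C) were not called, at log2 fold changes of -0.17 and 0.43. The other calls, named after their values were seen, had log2 fold changes between -1.54 and 1.48, with matches to *AGL8* (*FRUITFULL*) and *SPL15* higher and matches to *SPL3*, *AGL71* and *FD*, the bZIP partner of *FLOWERING LOCUS T*, lower. These names had other tested matches that were not called, among them *SPL3* (BraA03g017890.3C, log2 fold change 0.76), *AGL8* (BraA03g043880.3C, -0.43), *SPL15* (BraA04g003010.3C, -0.32) and *FD* (BraA03g059750.3C, 0.02). *FLOWERING LOCUS T* was also called and follows.

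*FLOWERING LOCUS T* itself, singled out after its values were seen because FLC and SVP repress it, differed in BraA02g016700.3C. It had 7.70, 2.89 and 2.11 normalized reads in ‘FT’ and 39.6, 117 and 271 in ‘CX001’. The lines did not overlap, while the ‘CX001’ libraries spread widely. The ratio of the means was 33.7 (counting interval 19.5 to 63.8), at a log2 fold change of 4.53 (interval 2.91 to 6.16, adjusted p = 0.0012). The ‘CX001’ library with 271 was also the one with the highest xylem sum, 19740, and the library with 39.6 had the lowest, 2347, whose part in this value was not tested. The *SOC1* copy BraA04g031640.3C was lowest in ‘CX001’ library 2 and the *SVP* copy BraA04g016520.3C varied by 5.42% over these libraries.

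**Figure D5:**
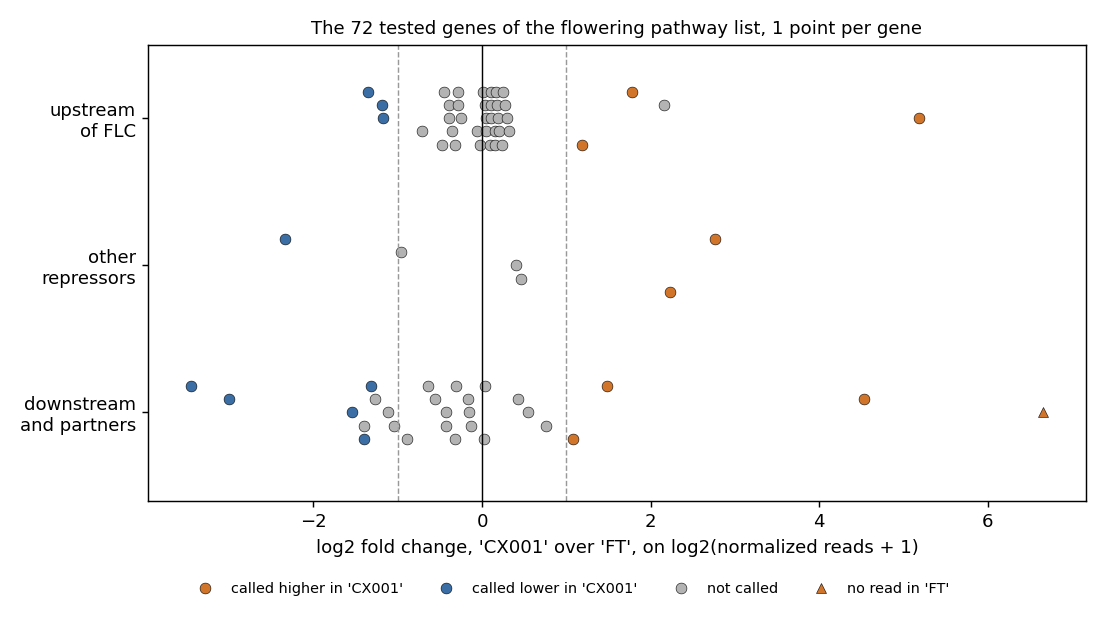
Log2 fold change of ‘CX001’ over ‘FT’, on log2(normalized reads + 1), of the 72 tested genes of the flowering pathway list in 3 roles, with 1 point per gene, orange where called higher, blue where called lower and grey where not called. Dashed lines mark the fold minimum of 2, and the triangle is BraA07g031650.3C, which has no read in ‘FT’, so its place depends on the 1 added before the log.

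Genes next to the 10 called members were also read, 2 on each side, 32 genes without repeats and without the members themselves. Of these, 25 were tested, 4 were higher and 6 were lower, or 40.0%, against 30.6% of all genes tested. Of the 25, 3 passed the filter only through the line where they were higher. They were BraA02g003350.3C and BraA10g027700.3C, both called and given below, and BraA02g044900.3C, not called. The 15 not called had log2 fold changes between -1.34 and 1.78. On A02, the neighbours after BraA02g003340.3C were matched to *UFC* and to a *fabZ* dehydratase, and both were lower in ‘CX001’ as well, at means of 14.5 and 3.32 (BraA02g003350.3C, log2 fold change -2.23, adjusted p = 0.0317) and of 129 and 21.5 (BraA02g003360.3C, log2 fold change -2.57, adjusted p = 0.000234). Before it, the *DFC* match BraA02g003330.3C was too low to be tested. In *Arabidopsis*, *UFC* and *DFC* are the genes upstream and downstream of *FLC*.

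On A03, the higher *FLC* copy BraA03g004170.3C lay beside a *fabZ* match that was higher too (BraA03g004180.3C, means of 836 and 1855, log2 fold change 1.15, adjusted p = 0.000165). Near *FLC1* on A10, BraA10g027700.3C, which has no name in the table, had a mean of 1.99 in ‘FT’, from 6 reads, and of 2325 in ‘CX001’ (adjusted p = 5.1e-07, log2 fold change 9.61), opposite in direction to *FLC1*. Both sides of the *FLC* match BraA03g015950.3C, itself lower, held a lower gene, the *DREB1B* match BraA03g015940.3C (means of 320.5 and 29.7, log2 fold change -4.04, adjusted p = 0.00209) and the At2g30020 match BraA03g015970.3C (1141.5 and 317, log2 fold change -1.86, adjusted p = 0.00057). Within the A02 cluster of higher *MAF* genes, the unnamed BraA02g044930.3C was lower (means of 146.5 and 66.1, log2 fold change -1.15, adjusted p = 0.00806), and the *TPPJ* match BraA02g045000.3C after the cluster was higher (55.2 and 141, log2 fold change 1.35, adjusted p = 0.0105). The neighbours of the A06 cluster were not called or not tested. Beside the *SVP* copy BraA04g016520.3C, the *NET2D* match BraA04g016530.3C was higher (means of 439 and 905, log2 fold change 1.03, adjusted p = 0.000618) and the *KIP* match BraA04g016500.3C was not called. The genes directly beside the *SOC1* copy BraA04g031640.3C, matched to *URT1* and *LPEAT2*, were not called, at log2 fold changes of 0.22 and 0.70. The At2g45590 match BraA04g031620.3C, the next one on the *URT1* side, was lower like the *SOC1* copy (means of 274 and 106, log2 fold change -1.39, adjusted p = 0.00147).

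Across the 6 libraries, the genes whose log2 values lay nearest to those of BraA02g003340.3C were matched to an uncharacterized membrane protein (BraA02g037700.3C, Euclidean distance 0.322), to the reticulon-like *RTNLB1* (BraA08g020860.3C, 0.337) and to the receptor kinase *SOBIR1* (BraA04g023010.3C, 0.407). Their means were 623 and 225, 685 and 218, and 639 and 228 in ‘FT’ and ‘CX001’. None of the 3 belongs to the flowering list.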

How the data were processed

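RNA-seq of stems gave 3 libraries for each of the lines ‘FT’ and ‘CX001’. By the methods, the authors trimmed the reads, aligned them with HISAT2, assembled transcripts with StringTie and compared the lines with DESeq2, while TopHat2 also stands in the submitters' processing notes. The library kit in the labels is a SMARTER mRNA kit, and whether counting used strand or shared multi-mapped reads is not given in the sources used here. The signal values used are the authors' deposited means per line of read counts divided by size factors. The table's further columns hold the authors' own comparison (a mean over both lines, fold change, p-values and direction) and were not used. Positions follow the *B. rapa* genome V3.0, and gene names are best protein matches, with RefSeq symbols from assembly CAAS_Brap_v3.01, where 9 of the 15 genes matched.

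Each deposited mean is a sum of whole reads of 3 libraries, each with its own step, and its 15 digits fix those reads. The steps came from the lowest values, and means above 20000 were not solved. Size factors computed again from the reads differed from the steps by at most 0.0609%. Among the 25993 genes whose higher line mean reached 10, 55 were not solved in both lines, and 25938 were tested with limma 3.58.1 (R 4.3.3), with a trend, on log2(normalized value + 1), adjusted by Benjamini-Hochberg over all of them. The procedure was tested on simulated data. Fold changes are on that scale and understate changes of low genes. Counting intervals (95%, exact) cover counting error only. Named were all members, per role of the pathway list up to 3 called genes with the smallest adjusted p, of the 2 genes on each side of called members those called and some others (the rest are given by count), and the 3 nearest genes to the *FLC* match with the highest mean. The members and lists were chosen with earlier results of these data known. Alternatives were other pseudocounts (0.5, 5), no minimum or one of 50, scalings, voom weights, fold minimums (1.5-fold, none), the ratio of deposited means and leaving out each library. Computing used numba 0.67.0, scipy 1.17.1, numpy 2.4.6, matplotlib 3.10.9 and pandas 2.3.3 in Python 3.11.15.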

Additional observations from a re-analysis of the deposited data

How the results depend on the processing

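Over the settings tried, other than leaving out a library, 136 of 137 member values were judged the same. This meant the same direction and side of the threshold, or, for the ratio of deposited line means, a size within the standard error. The looser fold minimums (1.5-fold, none) reused the main fit, so no call could be lost under them. Members not called had a limma adjusted p of at least 0.225, so none could be gained. The values under these minimums were therefore the same by construction and show no robustness. The exception was BraA03g004170.3C, whose log2 ratio of the deposited line means was 4.42, with no value added before the log. Size was not judged under the other settings, and with 5 added before the log this gene had 2.76 against 3.91. Wherever a called member was tested, it kept its call and direction under these settings and left-out libraries, and the member counts stayed at 6 higher and 4 lower when any 1 library was left out. A minimum mean of 50 left BraA03g004170.3C and 2 short models of A03 untested, for 5 higher and 3 lower. With no minimum, the AGL31 match BraA02g044920.3C was tested and called, for 7 higher and 4 lower. Among members not called, the log2 fold change of BraA09g054750.3C was -0.041 without ‘CX001’ library 1 and -0.014 without ‘FT’ library 3 (range over left-out libraries -0.041 to 0.41), and that of BraA03g023790.3C was -0.14 without ‘FT’ library 3 (range -0.14 to 0.37). These copies have intervals around 0, and the cause was not tested. With no fold minimum, 6480 genes of the table were higher and 6368 lower. The calls of the pathway list ranged from 7 to 9 higher and from 8 to 12 lower over left-out libraries, and those of all genes from 3362 to 3796 and from 3805 to 4329. Scaling by library totals moved the median of all genes tested by -0.06 on the log2 scale. A count model in edgeR, planned as an alternative, was not run, because a count test was admitted only where the table's own values come out as whole reads, which means over 3 libraries do not, although reads per library were worked out from them. Reads under about 10 per line, as in BraA03g004170.3C and the AGL31 match in ‘FT’, limit how precisely a fold can be given. No paired analysis was possible because the labels number no libraries.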
